A study of Homo sapiens with 2 samples.

Results

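The MYC and MAX network was examined in the lymphoma line SU-DHL-1, derived from anaplastic large cell lymphoma (ALCL). The 10 genes MYC, MYCN, MAX, MXI1, MXD1, MXD3, MXD4, MNT, MGA and MLX were chosen by name, as activators, partners and repressors of the network. Earlier results of these data were known when they were chosen. Of the 10 genes, 9 had a probe set assigned to them alone, 33 probe sets in all, out of 19775 genes with such a probe set. The 3 probe sets of MXD4 were annotated together with a microRNA gene, so MXD4 had no value of its own. The study knocked down the NKL homeobox gene HLX, and both cultures were SU-DHL-1 transfected by electroporation with siRNA, siCTR (a negative control siRNA) or siHLX (an siRNA against HLX), and harvested the next day. RNA of each was run on 1 Affymetrix HG-U133 Plus 2.0 array. The line is a single ALCL model with the NPM1-ALK fusion, and the study lists it with a copy number gain at MYC and with mutated MGA. With 1 array per siRNA there was no replicate error and no test, and the number of arrays limits the precision of every difference below.

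MYC proteins activate transcription as dimers with MAX, which bind a short DNA sequence called the E-box. The MXD proteins, MXI1, MNT and MGA compete for MAX at the same sequence and repress, most of them through SIN3 and histone deacetylases, MGA through a polycomb complex called PRC1.6. MLX is a parallel partner, which joins MLXIP or MLXIPL in the response to glucose and can also bind some MXD proteins and MNT. In T cells MYC drives growth and division, and the MXD proteins are known for their rise as cells leave the cycle.

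The E-box has the letters CACGTG, a palindrome that reads alike on both strands. It was searched in RefSeq promoter windows (build GRCh38.p14), which run from 250 bases before to 50 after the start of a transcript. Of 35116 windows, 7.26% held it, and 8.77% of the 27305 genes had it in at least 1 window. Windows were found for 9 of the network genes, and 3 of them, MNT, MLX and MXD4, held an E-box. These sites are shown because they are copies of the sequence that the network's own dimers bind, within the promoters of network genes. The site of MNT lies at chr17:2401233-2401268 on the minus strand, that of MLX at chr17:42567035-42567070 on the plus strand, and that of MXD4 at chr4:2262327-2262359 on the minus strand. All read 5′ to 3′ along the strand of the gene, and capitals mark the E-box.
MNT: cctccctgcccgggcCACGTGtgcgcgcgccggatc
MLX: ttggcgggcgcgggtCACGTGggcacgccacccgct
MXD4: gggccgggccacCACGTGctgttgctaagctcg

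MXI1, the gene of a MAX-binding repressor, was the only one of the 9 genes whose brightest probe set differed between the arrays by 1.5-fold or more. Its only probe set, 202364_at, read 6.88 with siCTR and 7.56 with siHLX, in log2 intensity. The siHLX reading was higher by 0.68 on the log2 scale, or 1.6 times the control. Within 0.5 log2 units of this level lay 3944 probe sets assigned to 1 gene, 202364_at included, here called like-level. Of these, 23 (0.583%) were as far up. In RNA of a whole culture, more cells with a transcript and more transcript per cell cannot be told apart. Over the 12135 genes above the level threshold, 2.50% were higher by this fold and 2.55% were lower. That threshold was 4.865, the median of the probe sets with controls left out, and each gene was read by its brightest probe set. The other 8 network genes lay within 1.5-fold, and 0 of 9 reached 2-fold, against 0.841% of all genes. The differences of MYC and MAX were smaller than that of MXI1 by 0.61 and 0.74, which a scaling factor between the arrays does not alter. The gap to MAX holds for its brightest probe set, and its dimmest one, at 0.81, lay above MXI1.

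Among 3 promoter windows of MXI1, none held CACGTG, and 1 held ACGTG or its reverse complement CACGT, the core that the E-box shares with the binding site of hypoxia-inducible factors. This core is common, in 21.4% of all windows. The bases before the start of that MXI1 transcript, at chr10:110209981-110210230 on the plus strand, are shown because MXI1 had the widest difference of the network by brightest probe set, with the core in capitals. The E-box variant CACGCG, or its reverse complement CGCGTG, was in 1 of the 3 MXI1 windows and in 11.4% of all windows. A match of letters is a description of a window, not of a bound factor.
MXI1: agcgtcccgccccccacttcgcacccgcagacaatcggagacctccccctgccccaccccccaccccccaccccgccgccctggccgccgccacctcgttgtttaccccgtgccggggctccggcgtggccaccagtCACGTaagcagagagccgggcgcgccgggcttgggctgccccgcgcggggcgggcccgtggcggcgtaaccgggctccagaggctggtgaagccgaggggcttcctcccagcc

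**Figure D1:**
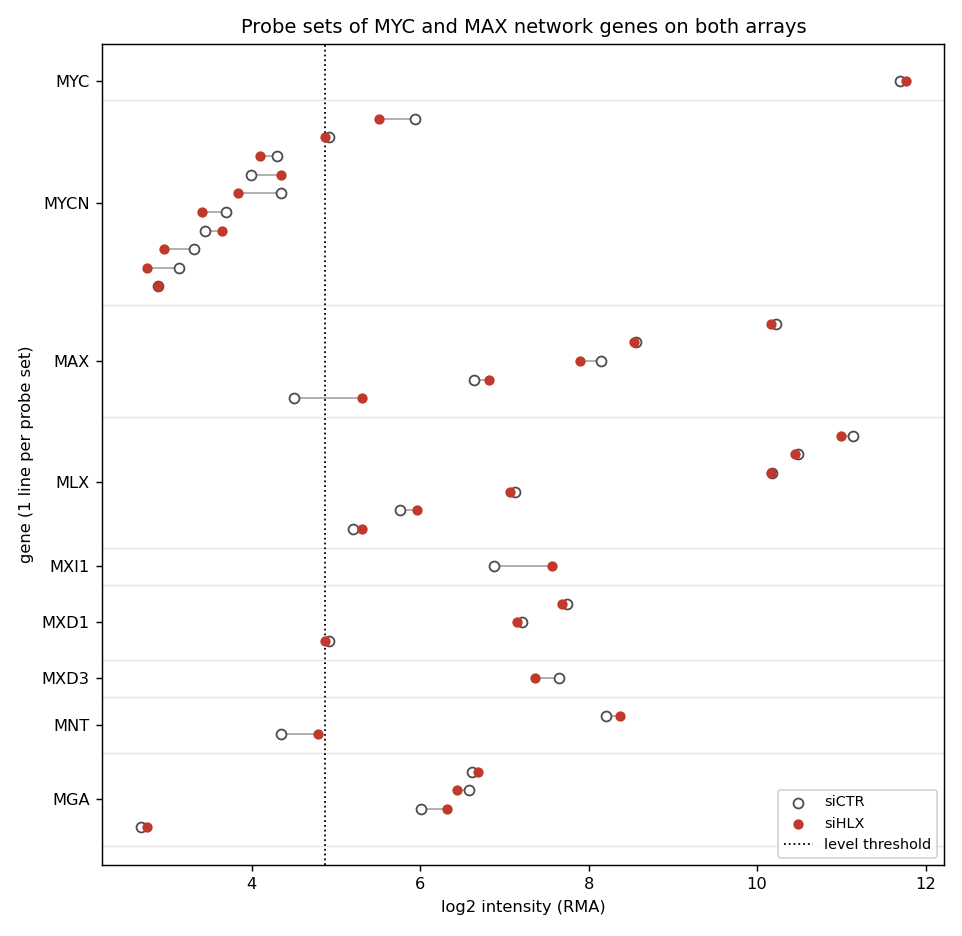
Log2 intensity (x axis) of all 33 probe sets of 9 network genes (y axis, 1 line per probe set) on the siCTR array (open circles) and the siHLX array (filled circles); the dotted line is the level threshold of 4.865. MXI1 goes from 6.88 to 7.56, the single probe set of MYC stays between 11.70 and 11.77, and most of the MYCN readings lie left of the threshold.

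MYC, the central activator, was bright and nearly equal on both arrays. Its only probe set, 202431_s_at, read 11.70 with siCTR and 11.77 with siHLX (difference 0.07), and was brighter than 98.7% of all probe sets. Its difference was matched or passed by 19.9% of 563 probe sets near its level. MYCN, the activator known from neural tumours, was dim, with 8 of 10 probe sets below the threshold. The brightest one read 5.94 with siCTR and 5.51 with siHLX (difference -0.43). As low a difference was seen in 13.3% of probe sets near this level. Over all 10 the differences ran from -0.51 to 0.36, with 7 lower, 2 higher and 1 equal on the siHLX array. The second probe set above the threshold read -0.05.

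MAX, the obligate partner of MYC and of the repressors, gave readings on both sides of 0. Its brightest probe set read 10.23 with siCTR and 10.17 with siHLX (difference -0.06). The next read 8.56 and 8.54, a difference of -0.02. Those that followed had -0.25 (8.15 with siCTR, 7.9 with siHLX) and 0.18 (6.64 and 6.82). These 4 carry the suffix _s_at or _x_at, which marks probes that can match several transcripts. The fifth, 214108_at, lay just above the threshold and read 4.5 with siCTR and 5.31 with siHLX. Its difference of 0.81 was reached by 4.81% of probe sets near its level. The SD over the 5 differences was 0.41, against a pooled SD of 0.27 between probe sets of a gene over 5869 genes, but without 214108_at, which passed the threshold only through the siHLX array, it was 0.18. All probe sets of a gene measure a single RNA sample per array, and such an SD is technical.

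MLX, the partner in the glucose-responsive arm, differed little. Its brightest probe set read 11.14 with siCTR and 11.00 with siHLX (difference -0.14), which 11.0% of probe sets near its level matched or passed. The other 5 ran from -0.07 to 0.20, and the mean over all 6 was 0.01 (SD 0.12). The 4 brighter probe sets all read lower on the siHLX array, and both dim ones read higher.

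MXD1 and MXD3, the genes named MXD with values of their own, read lower with siHLX, at -0.06 and -0.29 on their brightest probe sets. MXI1, a MAX-binding repressor as they are, read higher by 0.68. The 3 probe sets that MXD4 shares with a microRNA gene, not counted for MXD4, read higher by 0.98, 0.23 and 0.03. Of like-level probe sets, 0.974%, 25.7% and 47.5% were as far up. MXD1, a repressor of resting and differentiated cells, read 7.74 with siCTR and 7.68 with siHLX on its brightest probe set. Its 3 probe sets gave -0.06, -0.06 and -0.05 (SD 0.01), the closest agreement in the network. Of like-level probe sets, 40.4%, 40.7% and 47.0% read as low or lower. MXD3, a family member found in dividing cells, read 7.65 with siCTR and 7.36 with siHLX on its only probe set. The difference was -0.29, and 9.96% of the probe sets around its level read as low or lower. MNT, the MAX-binding repressor present in most cells, read 8.21 with siCTR and 8.37 with siHLX (difference 0.16), with 19.0% of like-level probe sets as far up. Its second probe set, below the threshold, had 0.43. Both readings of MNT were thus higher with siHLX, within the range of other probe sets at their levels. With poly-A scaling (spike controls set equal on both arrays) MXD1 read 0.23, the other side of 0, and MXD3 0.00 after rounding.

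MGA, a large MAX-binding protein that the study proposes as a repressor of STAT3, showed no common direction. Its probe sets above the threshold read 6.61 with siCTR and 6.69 with siHLX (0.08), 6.58 and 6.44 (-0.14), and 6.01 and 6.32 (0.31). The mean of these differences was 0.08 (SD 0.23). A further one, far below the threshold, read 2.68 and 2.76. The study ties MGA to the start site of STAT3 from public binding data of another cell line. STAT3 itself read 11.49 with siCTR and 11.55 with siHLX on its brightest probe set, a difference of 0.06. Its other 3 gave -0.02, 0.20 and 0.37.

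**Figure D2:**
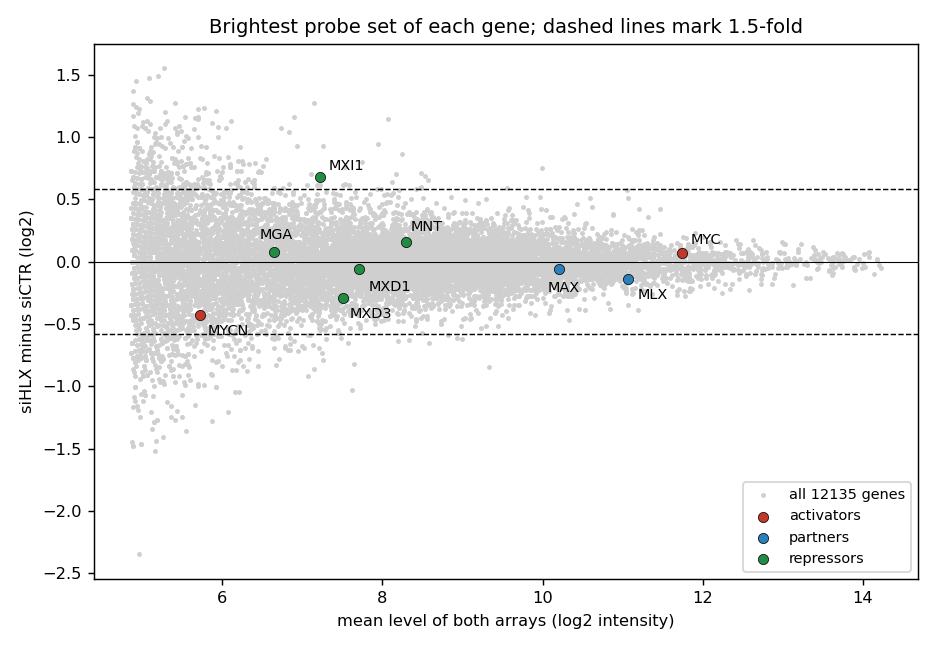
Difference between the arrays in log2 units, siHLX minus siCTR (y axis), plotted by level, the mean of both arrays (x axis), 1 point per gene read by its brightest probe set; coloured points are 9 network genes by role, grey points all 12135 genes, and dashed lines mark 1.5-fold. MXI1 at 0.68 is the only network gene outside the dashed lines, and MYC, MAX and MLX lie at bright levels within 0.14 of 0.

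Counted by brightest probe set, the siHLX array had 4 of the 9 network genes higher and 5 lower, and their median was -0.06. This median was 0.08 when the probe sets of each gene were averaged and 0.16 without those ending in _s_at or _x_at, so its sign rests on the reading. Over all genes 47.4% were higher, with a median of -0.01 and an SD of 0.28. Between the quartiles of all genes, -0.14 and 0.13, lay 5 of the 9. Of the 23 network probe sets above the threshold, 2 reached 1.5-fold, those of MXI1 and of MAX at 4.5 and 5.31, against 6.01% of all such probe sets. The share for the network is 2 readings and is not set apart from that background. The spread also depends on level, with an SD of 0.44 over genes below a level of 6 and 0.11 at or above 10. Scaled to equal poly-A spike controls, 7 of the 9 genes were higher and 2 lower, as the median of all genes moved from -0.01 to 0.28.

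The siRNA target and the labelled cells were checked in the same values. HLX read 8.15 with siCTR and 7.70 with siHLX, 0.732 times the control, on its only probe set. Of like-level probe sets 1.59% were as low, and with poly-A scaling the difference was -0.16 (0.895 times the control). ALK, the kinase gene of the fusion, and the cytotoxic genes GZMB and PRF1 read above 12 on both arrays, and TNFRSF8, which encodes CD30, read 9.92 and 9.79. Of the T-cell genes, CD3D was bright at 10.73 and 10.98, whereas CD2 lay below the threshold. CD3E, at 5.87 with siCTR and 5.68 with siHLX, and CD4, at 5.96 and 5.63, were dim and lower with siHLX. IL2RA read 12.2 and 12.26, and TIA1 9.23 and 9.09. Of 7 B-cell and myeloid markers measured, CD79A, CSF1R and PAX5 lay above the threshold, at levels up to 6.81 on the siHLX array, and MS4A1, CD14, LYZ and MPO below it. CSF1R had 0.44, CD79A 0.24 and PAX5 -0.33, and the summed level of the 7 markers read 7.94 with siCTR and 8.13 with siHLX (log2 of the summed intensities). Their part in the network's differences was not tested. The poly-A controls, added to RNA before labelling, were lower on the siHLX array by a mean of 0.29 (SD 0.18) in 23 of 24 probe sets. For the 18 hybridisation controls the mean was -0.02 (SD 0.08).

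The proteins that the network works with were described from fixed lists, 147 genes above the threshold in all beside the members. Of these, 65 were higher and 77 lower, with a median of -0.02. By brightest probe set, only NFATC1, at 0.59, and GPD1, at -0.79, reached 1.5-fold. They were 1.36% of the genes, against 5.05% of all genes above the threshold. GPD1 passed that threshold only through the siCTR array. Levels of the list genes and of all genes were not matched. Of all genes above the 75th percentile of level, 0.545% reached this fold. Other probe sets of some list genes also passed it, among them CCNT1 at 0.63 and ING1 at -1.08. With poly-A scaling the medians of all 11 lists lay above 0, from 0.17 to 0.36. The lists were set up with earlier results of these data known.

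Other members of the network, not among the 10, read within 0.3 of 0. MLXIP, the glucose sensor that pairs with MLX, read 7.92 with siCTR and 8.09 with siHLX (0.17), and its second probe set above the threshold had 0.26. MLXIPL, its relative in liver, had -0.28 and MYCL -0.12, both dim. Of 11 further E-box factors, 8 were higher and 2 lower, with a median of 0.03. ARNT, the partner of hypoxia-inducible factors, had 0.40 on its brightest probe set and down to -0.08 on others. BHLHE40, a repressor of clock and stress genes, had 0.25 and 0.38 on its probe sets, while USF1 had -0.19 and BMAL1 -0.10.

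The corepressors through which MXI1 and the MXD proteins act gave 8 higher and 7 lower of 15, with a median of 0.02. ING1 and ING2, subunits that read histone marks, lay at opposite ends. ING1 had 0.55 on its brightest probe set and as low as -1.08 on another, and ING2 had -0.34. SUDS3 and SAP30, both parts of the SIN3 complex, had 0.33 and -0.22, and SUDS3 had -0.11 on its other probe set. The partners of MGA in PRC1.6 gave 3 higher and 6 lower of 11, with a median of -0.02. YAF2, a linker subunit, read 7.7 with siCTR and 7.3 with siHLX (difference -0.40), and its relative RYBP had 0.18. RING1 had 0.08, TFDP2 -0.17, and the DNA-binding subunit E2F6 -0.08. Of 15 germline and meiosis genes known to be silenced by this complex, 11 lay below the threshold, as did 38.6% of all genes. The 4 above it were ZCWPW1 at 0.39, STAG3 at 0.12, TDRKH at -0.03 and TEX101 at -0.30.

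The list of MYC coactivators, which also holds ZBTB17, a partner of MYC in repression, was evenly divided. It had 8 higher and 8 lower of 17 and a median of 0.00. EP400, a chromatin remodeller, had 0.37 on its brightest probe set and 0.04 to 0.6 over those above the threshold. CCNT1, a cyclin of elongation, had 0.16 on its brightest and 0.63 on its other. The acetyltransferase gene KAT5 had -0.25 on its brightest and up to -0.14. SMARCB1 had -0.19 on its brightest, with a range from -0.56 to -0.08. Genes that act on the turnover of MYC protein had 7 higher and 13 lower of 21, with a median of -0.04. USP36, a nucleolar deubiquitinase that stabilises MYC, read 9.0 with siCTR and 8.54 with siHLX (difference -0.46), and up to 0.05 on its other probe sets. TRPC4AP, part of a ligase for MYC, had -0.25, whereas the kinase genes GSK3A and PLK1 had 0.24 and 0.20. Factors that act on MYC transcription had 4 higher and 8 lower of 12, with a median of -0.06. NFATC1 went from 0.59 on its brightest probe set to -0.35 on another, E2F1 had -0.33, FUBP1 -0.29 and LEF1 0.07.

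**Figure D3:**
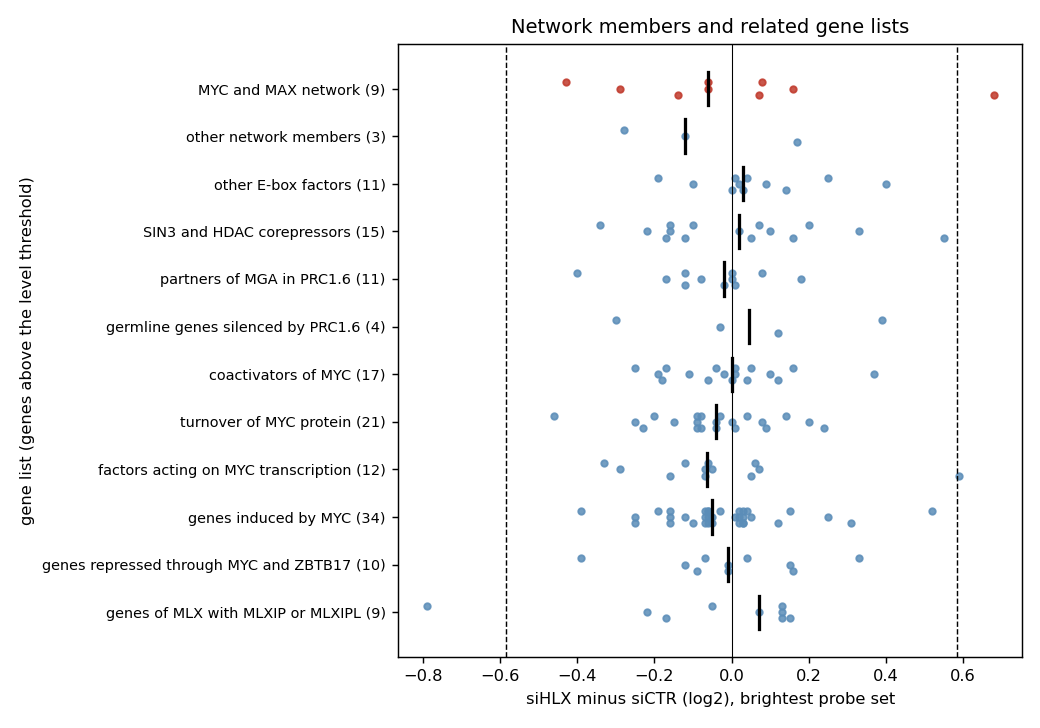
Difference between the arrays in log2 units (x axis) for network members (top) and 11 related gene lists (y axis, in parentheses the number of genes above the level threshold); each point is a gene read by their brightest probe set, black bars medians, and dashed lines 1.5-fold. All medians lie between -0.12 and 0.07, and MXI1, NFATC1 and GPD1 are the points beyond the dashed lines.

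Genes known to be induced by MYC had a median of -0.05, with 15 higher and 19 lower of 34, where 47.4% of all genes were higher. PKM, a glycolytic kinase, had 0.52 on its brightest probe set and 0.18 on its other, and HK2, the first enzyme of glycolysis, 0.31 on its brightest and -0.71 on its lowest. CDC25A, a phosphatase of the cell cycle, read 9.36 with siCTR and 8.97 with siHLX (-0.39), and NOP16, a nucleolar protein, 11.25 and 11.00 (-0.25). Among the best known targets ODC1 had -0.06, LDHA 0.03 and NPM1 0.03, and NCL had -0.06 on its brighter probe set and -0.35 on its other. Genes repressed through MYC and ZBTB17 had 4 higher and 6 lower of 10, with a median of -0.01. Among them the stress gene NDRG1 had 0.33, the cell cycle inhibitor gene CDKN1A 0.16, NDRG2 -0.39 and AMBRA1 -0.12. Genes of the MLX arm had 5 higher and 4 lower of 9, with a median of 0.07. TXNIP, the classical target of MLXIP and MLX, read 9.25 with siCTR and 9.03 with siHLX (-0.22), with 0.22 at the other end of its probe sets. The lipid synthesis genes ELOVL6 and SCD had 0.15 and 0.13 (as had ACACA and FASN), while GPD1, dim at 5.34 and 4.55, had -0.79 and lay close to the threshold.

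Of the 35 induced genes that had a window, 17 held an E-box, against 8.77% of all genes with a window. The list was made of genes known to be induced by MYC, so this share describes the list and was not tested. Sites of 3 of the 17 genes are shown, each the site farthest upstream, as matches to the E-box letters in genes of this list. They lie at chr12:57752506-57752541 on the minus strand (CDK4, which drives entry into the cycle), chr14:20455106-20455141 on the plus strand (APEX1, a DNA repair enzyme) and chr2:74834961-74834996 on the plus strand (HK2). Capitals again mark CACGTG.
CDK4: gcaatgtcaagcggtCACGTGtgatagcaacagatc
APEX1: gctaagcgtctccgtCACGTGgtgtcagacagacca
HK2: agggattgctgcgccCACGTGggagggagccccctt

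The differences of these genes were -0.16 for CDK4, 0.12 for APEX1 and 0.31 for HK2, as read by their brightest probe sets. The 17 induced genes with an E-box, all above the threshold, had 9 higher and 8 lower and a median of 0.01, and 13 without it had 4 higher and 9 lower and a median of -0.06. Over all genes above the threshold, 1247 with an E-box had a median of -0.01 with 46.4% higher, and 8578 without one had a median of -0.01 with 47.6% higher. In these 2 arrays the presence of the sequence did not separate genes by direction. Beyond 1.5-fold lay 3.21% of genes with an E-box and 4.67% of those without, and the levels of both groups were not matched.

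MXI1 read 0.97 with poly-A scaling and 0.67 to 0.68 in 8 other settings. With a single probe set above both thresholds, and on arrays already quantile normalised, those 8 could hardly move it. MYC lay between 0.07 and 0.36, highest with poly-A scaling. MAX went from -0.06 to 0.81 when probe sets ending in _s_at or _x_at were left out, since 214108_at was then its only reading. In the same setting MLX went from -0.14 to 0.20, MGA from 0.08 to -0.14 and MYCN from -0.43 to -0.05.

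**Figure D4:**
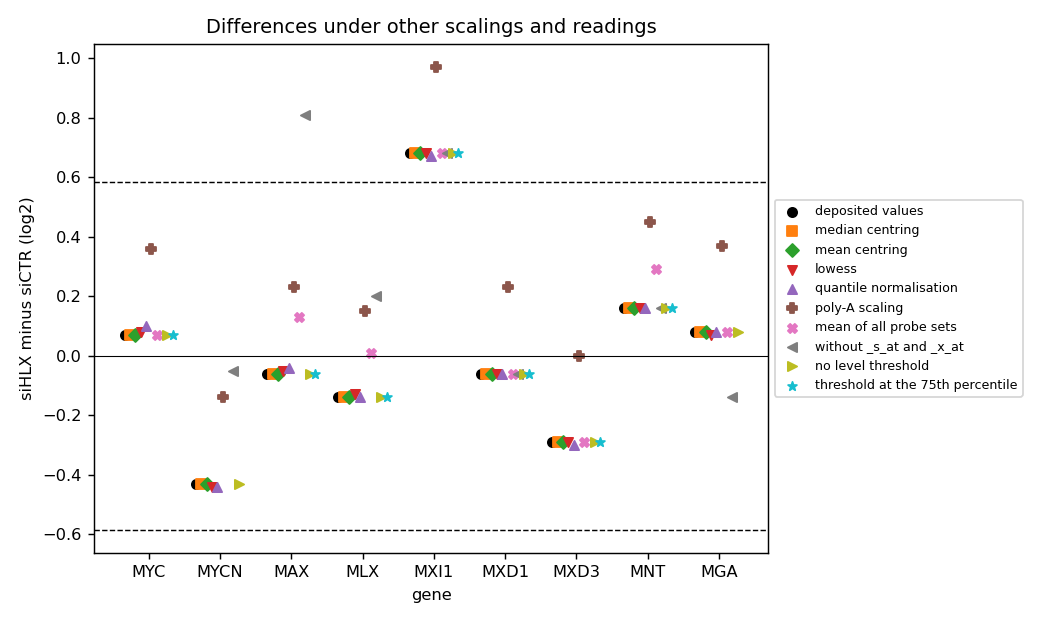
Difference between the arrays in log2 units (y axis) of 9 network genes (x axis) as deposited (black circles) and under 9 other scalings or readings (coloured symbols, named in the key); dashed lines mark 1.5-fold. MXI1 lies above the upper dashed line in each setting, MAX moves from -0.06 to 0.81 without _s_at and _x_at probe sets, and poly-A scaling lifts all 9 genes.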

How the data were processed

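The values deposited by the authors are log2 intensities per probe set of 2 Affymetrix arrays, RMA background corrected and quantile normalised. Per the labels the tools were RMA, limma and affy. Versions are not given in the sources used here. Quantile normalisation removes any change shared by most transcripts. Probe sets were named from the platform annotation where it gave 1 gene (41091 of 54613), with symbols updated through the RefSeq table of GRCh38.p14. Differences are siHLX minus siCTR. No test was possible with 1 array per siRNA. Level shares compare a probe set with the probe sets assigned to 1 gene within 0.5 log2 units. The probe set itself is counted where it is assigned to 1 gene. Genes named were all members, HLX, STAT3 and the 2 highest and 2 lowest genes of each list; others (E2F6, ODC1, NCL, LDHA, NPM1, CDK4, APEX1 and markers) were chosen after values were seen. Members and lists were chosen with earlier results of these data known. Alternatives were other scalings (median, mean, lowess with fraction 0.2, quantile, poly-A controls), readings, thresholds and folds. Steps were tested on simulated data, in Python 3.11.15 with pandas 2.3.3 and statsmodels 0.14.6.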

Additional observations from a re-analysis of the deposited data

Results flagged for a closer look

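Among probe sets that took no part in the comparisons, 3 were annotated with both MXD4 and the microRNA gene MIR4800, and cannot be assigned to either. One of them, 212346_s_at, gave 5.27 on the siCTR array and 6.25 on the siHLX array. Its difference of 0.98 was matched or passed by 0.974% of the 4823 probe sets around its level that were assigned to 1 gene. It is given here as a signal outside the probe sets that were compared. The other two read 0.23 and 0.03 at similar levels, so the 3 readings disagree in size.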

How the results depend on the processing

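Median centring, mean centring, lowess and quantile normalisation left each value within 0.27, the technical SD between probe sets of a gene. That SD served as the limit for a moved value and does not measure the missing replicate error. On arrays already quantile normalised, these scalings could hardly move a value. Poly-A scaling moved the median of all genes to 0.28. Members then had a median of 0.23, with 7 higher and 2 lower. List medians became 0.17 (other network members), 0.32 (other E-box factors), 0.31 (corepressors), 0.27 (PRC1.6 partners), 0.33 (germline genes), 0.29 (coactivators), 0.25 (turnover), 0.22 (MYC transcription), 0.24 (induced genes), 0.28 (repressed genes), 0.36 (MLX arm) and 0.28 (genes with an E-box). With the mean of all probe sets 6 of 8 members were higher and 2 lower (median 0.08). Without _s_at and _x_at probe sets 4 of 7 were higher and 3 lower (median 0.16), and 2 passed 1.5-fold, as MAX joined MXI1, while MYC and MXD3 had no reading. At the 75th percentile threshold MYCN and MGA dropped out and the other network members had 0.17, from fewer genes. At 2-fold 0 members passed. The cause was not tested beyond these constructions. No paired analysis was possible because each siRNA had 1 array. Most probe sets of MYCN lay below the threshold, and the fifth of MAX just above it.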
